A study of Mus musculus with 10 samples.

Results

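Genes of the ubiquitin system were followed in the cerebral cortex of mice that lack the TPR1 domain of STI1, the co-chaperone encoded by Stip1 that hands client proteins from HSP70 to HSP90. The members were chosen by name and by position. Each counted gene ID was assigned to an opposite-strand gene if that gene had 90% or more of the exon bases facing the ID, counts were summed per such gene, and genes with a count in any library were kept if their symbols began with Ube2, Ube3, Ube4, Trim, Rnf, Fbxo, Fbxl, Fbxw, Usp or Psm. This gave 66 members among 5176 opposite-strand genes with counts. They comprised 4 genes of the E2 group (Ube2), 31 of the E3 and E4 group (Ube3, Ube4, Trim and Rnf), 10 F-box genes (Fbxo, Fbxl and Fbxw), 12 deubiquitinase genes (Usp) and 9 proteasome genes (Psm). The prefixes sort genes by symbol and do not test what each product does, and 2 members, Ube2d-ps and Fbxl12os, carry the names of a pseudogene and an opposite-strand transcript.

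Total RNA came from a small piece of the cortex of 1 hemisphere of 10 mice on the C57BL/6 background. The 5 animals titled wt/wt carry both wild-type Stip1 alleles and were 663, 604, 663, 442 and 576 days old (animals 1 to 5). The 5 animals titled dTPR/dTPR, whose genotype is given as dTPR-/dTPR-, are homozygous for the allele without TPR1 and were 630, 606, 604, 582 and 541 days old. No treatment, sex or litter is given in the sources used here, and each library stands for 1 animal.

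Ubiquitin is a small protein that is attached to other proteins in a relay. An E1 enzyme activates it, an E2 enzyme carries it, and an E3 ligase picks the substrate, while F-box proteins are the exchangeable substrate receptors of one large class of E3 complexes. Chains of ubiquitin can send a protein to the proteasome, E4 enzymes lengthen such chains, and deubiquitinases take ubiquitin off again. In neurons the system is known for its part in synaptic plasticity and in the clearance of misfolded proteins, and HSP70 and HSP90 clients that fail to fold are among its substrates.

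The members were read through transcripts of the opposite strand, so the sequences that link a counted ID to a member are shown first, for 7 members as examples. Each is a stretch of the member's coding sequence, 5′ to 3′ on the member's own strand, from GENCODE M21 transcripts on GRCm38. Capitals mark the bases that face an exon of the counted ID, and lower case marks up to 20 neighbouring coding bases. Gm48747 faces Trim9 in 96 coding bases of exon 12 of 13 (chr12:70251145-70251260, minus strand). Ube4bos1 faces Ube4b in exon 15 of 27 (chr4:149357625-149357823, minus strand). Gmppb faces Rnf123 near its 3′ end, here in exon 36 of 39 (chr9:108052445-108052587, minus strand). Ahsa2 faces the last exon of Usp34, of which 200 of 602 coding bases are printed (chr11:23488584-23488783, plus strand). 4931422A03Rik faces all 104 coding bases of Fbxo3 exon 1, which open with the start codon (chr2:104027863-104027966, plus strand). Gm12356 faces only 17 bases of Psmd3 exon 1 (chr11:98682901-98682937, plus strand), and Nek6 faces Psmb7 in exon 7 of 8 (chr2:38590697-38590848, minus strand).
Trim9: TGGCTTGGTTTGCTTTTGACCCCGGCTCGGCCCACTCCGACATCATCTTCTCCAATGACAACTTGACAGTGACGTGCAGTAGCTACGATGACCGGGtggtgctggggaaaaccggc
Ube4b: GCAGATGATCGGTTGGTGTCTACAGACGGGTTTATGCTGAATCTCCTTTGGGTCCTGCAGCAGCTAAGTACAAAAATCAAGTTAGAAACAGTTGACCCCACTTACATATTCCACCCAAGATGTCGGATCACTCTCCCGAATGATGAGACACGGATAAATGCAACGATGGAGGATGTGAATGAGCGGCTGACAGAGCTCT
Rnf123: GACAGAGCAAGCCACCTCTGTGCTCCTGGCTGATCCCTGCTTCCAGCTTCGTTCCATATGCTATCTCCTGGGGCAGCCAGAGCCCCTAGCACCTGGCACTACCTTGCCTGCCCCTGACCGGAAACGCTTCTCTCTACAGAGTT
Usp34: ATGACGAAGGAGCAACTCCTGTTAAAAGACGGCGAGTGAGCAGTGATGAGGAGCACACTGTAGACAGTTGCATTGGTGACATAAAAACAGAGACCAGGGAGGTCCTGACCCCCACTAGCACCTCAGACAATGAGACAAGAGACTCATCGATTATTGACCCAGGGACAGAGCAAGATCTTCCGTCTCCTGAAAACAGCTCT
Fbxo3: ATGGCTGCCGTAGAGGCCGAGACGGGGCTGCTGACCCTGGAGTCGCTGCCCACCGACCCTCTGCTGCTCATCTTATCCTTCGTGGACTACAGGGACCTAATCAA
Psmd3: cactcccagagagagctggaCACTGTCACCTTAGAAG
Psmb7: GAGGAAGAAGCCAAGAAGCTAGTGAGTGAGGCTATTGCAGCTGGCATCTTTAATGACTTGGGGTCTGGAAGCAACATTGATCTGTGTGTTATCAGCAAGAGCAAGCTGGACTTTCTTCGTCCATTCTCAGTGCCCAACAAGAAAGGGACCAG

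These stretches show how uneven the contact is, from 17 bases at Psmd3 to whole coding exons at Ube4b and Rnf123. The 66 members were fed by 82 counted IDs, with 53 members fed by 1 ID, 10 by 2 and 3 by 3. An ID shared a median of 252.5 exon bases with its member, or 15.2% of its own exon length, beside 279 bases and 11.3% over all 5626 counted IDs that were assigned. For 7 IDs the shared part was under 50 bases, so most of their counted exon length lies outside the member's exons. Of the 82 IDs, 30 met their member tail to tail, 25 head to head and 27 lay inside it, and 41.5% were annotated as protein coding beside 62.0% of all assigned IDs. No member lay inside its counted ID, an arrangement that 12.9% of all assigned IDs had. The assignment was inferred from positions, and a value given for a member below includes every count of its facing IDs.

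In all, 78104 counts fell to the members, or 0.979% of all counts in the 10 libraries. The E3 and E4 group held 50740 of them, the deubiquitinases 14610, the F-box genes 9886, the proteasome genes 1860 and the E2 genes 1008. Rnf123 and Rnf5 together held 33.2% of the members' counts, and the 12 most abundant members held 81.0%. The annotation has 403 genes with these prefixes, of which 83 had any ID assigned, so the members are the part of the families that lies opposite a counted transcript. At the low edge, 31 members had between 1 and 92 counts over all libraries (median 18) and did not pass the filter on low counts. At the 90% rule, Usp29 (93.65% of the bases facing Zim3) and Usp34 (93.98% of those facing Ahsa2) were just inside. Rnf146 (87.84% of those facing Echdc1, 3558 counts) and Ube2e1 (87.24%, facing Nkiras1, 671 counts) were just outside.

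Library totals ran from 667751 to 927242 counts. CPM were not scaled to these totals. They are counts scaled, with TMM factors, to library sizes that cover only the opposite-strand genes kept by the filter on low counts. CPM are therefore higher than they would be on the library totals. On this scale 3 counts were worth 3.66 to 4.97 CPM. Such counting limits cover counting error only. The ID of Stip1 itself had 25 counts in all, too few to check the genotype. Of the fixed markers, 4 of 9 neuronal genes were measured (summed level 13422 to 17783 CPM in wild type beside 13296 to 18449 CPM in dTPR/dTPR), 2 of 5 for astrocytes and none of 5 for oligodendrocytes, and for microglia only Csf1r, at 0 to 17.7 CPM. Summed levels in wild type and dTPR/dTPR were 592 to 2160 and 493 to 1649 CPM for 2 of 4 inhibitory neuron markers. For the 2 astrocyte markers they were 115 to 352 and 152 to 461 CPM. For 2 of 4 oligodendrocyte precursor markers they were 1053 to 1895 and 1636 to 2617 CPM. They were 212 to 943 and 217 to 330 CPM for 3 of 4 mural and endothelial markers, and 12.2 to 206 and 0 to 65.8 CPM for 1 of 3 choroid plexus markers. The part of these lists in the members' values was not tested. The cortical projection neuron markers Slc17a7 and Camk2a had no facing ID with counts. All 4 markers of striatal medium spiny neurons were measured in this cortical tissue, at summed levels of 890 to 6361 CPM in wild type beside 451 to 2605 CPM in dTPR/dTPR, highest in wild-type animals 2 and 3. Leaving out those 2 animals together left 0 genes and 0 members past the threshold. With the mean striatal level of each animal in the model, 22 of the 35 tested members' fold changes moved by over 1.5 times or changed sign, and 0 members passed the threshold. The share over all genes was not computed, and fold changes near 0 pass this limit easily. Over the 10 fits that each left out 1 library, only 6 of the 35 members had no library that moved the value over 1.5 times. That number joins 10 fits, so it cannot be set beside the 22 of the 1 striatal fit.

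No member passed the test for a genotype difference. Of the 66 members, 35 passed the filter and entered the edgeR quasi-likelihood fit with 2019 genes, and 0 of the 35 had a Benjamini-Hochberg adjusted p under 0.05, beside 0% of all genes tested (smallest adjusted p = 0.999). At an unadjusted p under 0.05 stood 1 member, Fbxo3, or 2.86% of the 35, beside 2.82% of all genes tested. It was higher in dTPR/dTPR, a direction shared by 1.14% of all genes tested at that p, while 1.68% were lower. The DESeq2 Wald test gave 0 adjusted calls and 2 members at an unadjusted p under 0.05 (Fbxo3 and Rnft1, 3.03% beside 2.68% of all genes). For limma-voom the numbers were 0 and 1 (Fbxo3, 2.86% beside 4.46%). The count at an unadjusted p under 0.05 fell to 0 without wild-type animal 4 (beside 3.77% of all genes) or without dTPR/dTPR animal 4 (beside 2.25%). It rose to 2 without dTPR/dTPR animal 1 (5.71% beside 3.38%) or 5 (5.71% beside 3.06%), and to 3 without wild-type animal 5 (Fbxo3, Rnf207 and Ube3a). In that last fit the count over all genes rose too, from 57 of 2019 to 102 of 2075. Without dTPR/dTPR animal 2 the 1 member was Trim9 in place of Fbxo3, beside 4.16% of all genes. The genotype groups overlapped in CPM in all 35 members, beside 0.347% of genes tested whose groups did not overlap. Fold changes (dTPR/dTPR over wild type, log2) were positive in 21 of 35 members beside 50.2% of all genes tested, with a median of 0.05 beside 0.00. That median ran from 0.01 to 0.14 when 1 library was left out. It lay more than 1.5 times from 0.05 without wild-type animals 2, 3 or 4 (0.11, 0.10 and 0.14) and without dTPR/dTPR animals 1, 3 or 5 (0.08, 0.01 and 0.09). Summed over all 66 members, the level was 11225 ± 287 CPM in wild type beside 11359 ± 374 CPM in dTPR/dTPR (mean ± SD, n = 5 each, as for all CPM below). In tissue libraries such as these, fewer cells of a type and less RNA per cell cannot be told apart.

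**Figure D1:**
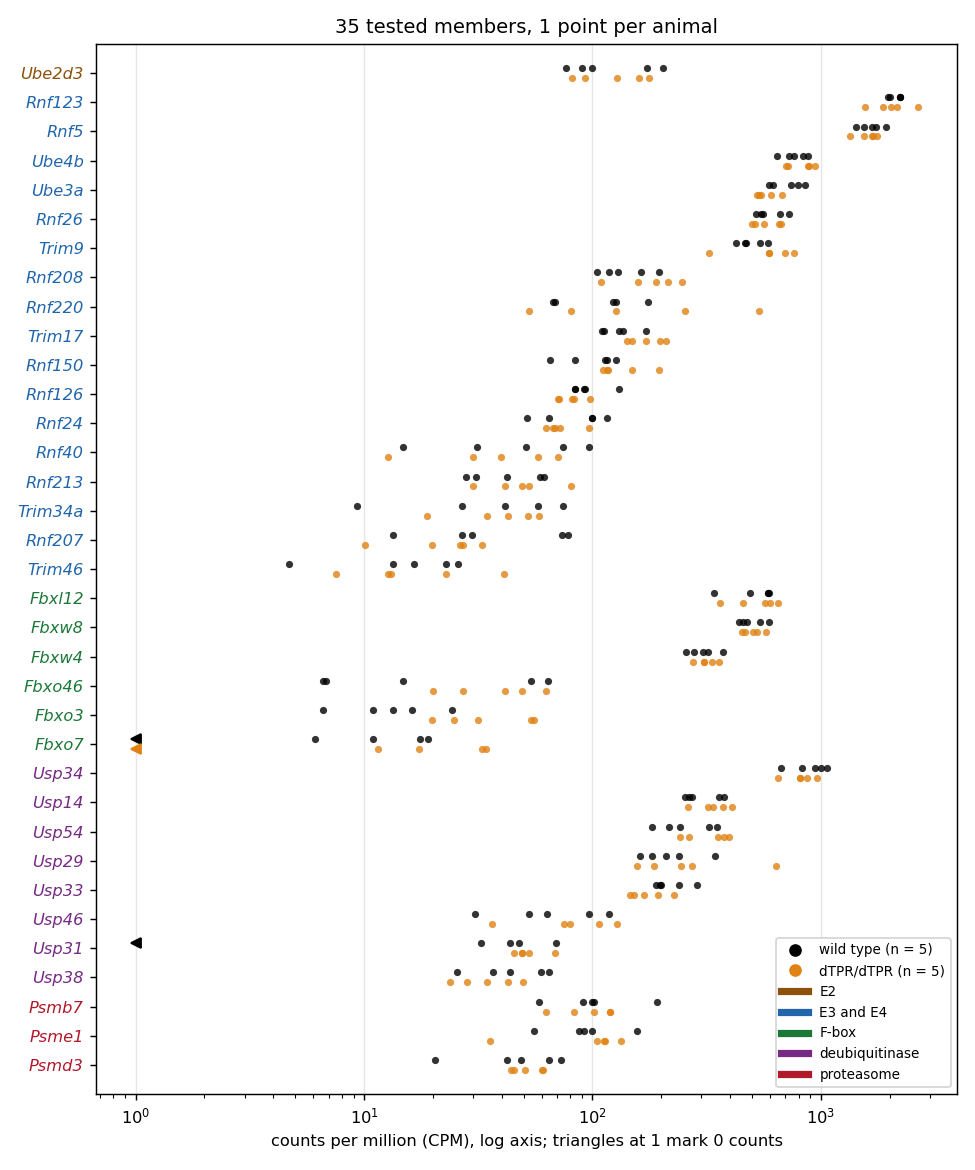
Levels of the 35 tested members in each animal (CPM, log axis), wild type in black and dTPR/dTPR in orange, grouped by role, with triangles at 1 for 0 counts. Mean levels span from 2094 CPM for Rnf123 to 15.0 CPM for Fbxo7, and the 2 genotypes overlap in every member drawn.

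The E2 enzymes carry activated ubiquitin to a ligase, and 1 of the 4 E2 members could be tested. Ube2d3, an E2 that works with many different ligases, was read through 4930539J05Rik, which meets its 5′ end head to head on chromosome 3. Wild-type animals 1 to 5 had 99.8, 174, 89.6, 204 and 76.9 CPM, and dTPR/dTPR animals 1 to 5 had 81.0, 129, 160, 177 and 92.7 CPM. The levels varied more than 2-fold among animals of the same genotype, and the ranges lay almost on top of each other. The log2 fold change was -0.01 ± 0.32 (SE), with a 95% interval from -0.69 to 0.68, and its sign changed in 8 of the alternative fits and when some libraries were left out. The other E2 members were Ube2w (82 counts), Ube2d-ps (36 counts) and Ube2s (10 counts), and the group summed to 141 ± 49.2 CPM in wild type beside 152 ± 56.7 CPM in dTPR/dTPR.

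The E3 and E4 group drew the most counts. Of its 31 members, 17 were tested, 8 with positive and 9 with negative fold changes (median -0.03), and its summed level was 7324 ± 278 CPM in wild type beside 7332 ± 256 CPM in dTPR/dTPR. Rnf123 encodes KPC1, the catalytic subunit of a ligase for the cell cycle inhibitor p27. It drew the most counts, and 13946 of its 14586 counts came from Gmppb, which meets its 3′ end tail to tail. Its levels were 2019, 2217, 2218, 1974 and 2214 CPM in wild-type animals 1 to 5 and 2673, 1866, 2038, 2161 and 1562 CPM in dTPR/dTPR animals 1 to 5. The dTPR/dTPR animals held both the highest and the lowest value, on either side of a narrow wild-type range. The fold change was -0.05 ± 0.15, and it turned to 0.31 when only the ID with most of its exon bases facing Rnf123, Gm20529, was kept.

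Rnf5 encodes a membrane-anchored RING ligase of endoplasmic reticulum quality control. It was read through Gm20463, a 366-base antisense transcript on chromosome 17 that lies wholly within its exons, and Rnf5's own ID had 0 counts. Its levels were 1549, 1745, 1926, 1421 and 1675 CPM in wild type beside 1341, 1673, 1539, 1689 and 1765 CPM in dTPR/dTPR. All 10 animals lay within a 1.5-fold range, and the genotypes overlapped along most of it. The fold change was -0.05 ± 0.14 (95% interval -0.35 to 0.24). Per length of counted exons, Rnf5 stood highest of the 12 most abundant members at 4460 CPM per kb, followed by Trim9 at 696 and Rnf123 at 399 CPM per kb.

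Ube3a encodes E6-AP, the ligase for which the E3 class with HECT domains is named, and neurons express it from the maternal allele while the long transcript of Snhg14 runs against it on the paternal one. Its levels summed over facing IDs were 616, 740, 795, 853 and 592 CPM in wild type beside 546, 607, 525, 539 and 674 CPM in dTPR/dTPR. All 5 dTPR/dTPR animals lay below the wild-type mean, while 2 of them lay above the lowest wild-type animal. The means were 719 ± 113 and 578 ± 62.1 CPM, a log2 fold change of -0.31 ± 0.16 (95% interval -0.65 to 0.02, edgeR unadjusted p = 0.0635, adjusted p = 0.999). The unadjusted p ran from 0.0342 to 0.174 with 1 library left out, and lay under 0.05 without wild-type animal 5 or without dTPR/dTPR animal 5. With the mean level of the striatal markers in the model the value was -0.15, and without wild-type animals 2 and 3 together it was -0.24. The 3 wild-type animals with the highest striatal level (2, 3 and 4) also had the 3 highest values here. Whether the striatal level bears on the Ube3a value was not tested.

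The locus could be split by ID, which shows where these counts lie. Snhg14, whose exons face the 3′ end of Ube3a on chromosome 7, gave 3871 of the 4472 counts and stood at 612 ± 92.7 CPM in wild type beside 512 ± 43.4 CPM in dTPR/dTPR (-0.24 ± 0.16). 9330162G02Rik, which faces the 5′ part, stood at 100 ± 20.6 and 64.3 ± 28.0 CPM (-0.62 ± 0.34). Gm44560 had 32 counts. Only 6.91% of the exon bases of Snhg14 and 5.80% of those of 9330162G02Rik face Ube3a exons. Unlike at most members, the ID of Ube3a itself held 2412 counts, at 352 ± 73.2 CPM in wild type beside 351 ± 101 CPM in dTPR/dTPR (0.01 ± 0.22). The adjusted p was 0.997 for Snhg14, for 9330162G02Rik and for the own ID when each was tested as deposited. Which share of the Snhg14 counts comes from Ube3a and which from Snhg14 itself was not tested.

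**Figure D2:**
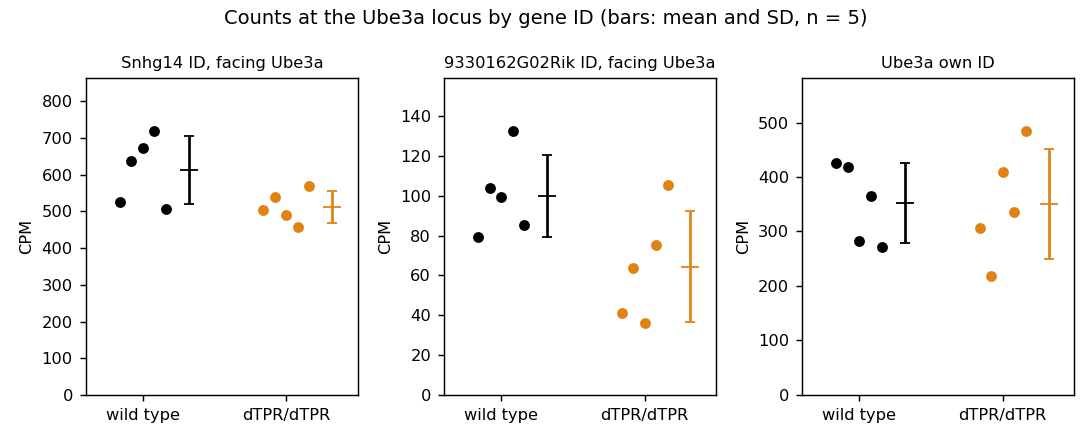
CPM of the IDs at the Ube3a locus in every animal, wild type beside dTPR/dTPR, with bars for the mean and SD of 5 animals. Snhg14 lies at 507 to 719 CPM in wild type beside 457 to 569 CPM in dTPR/dTPR, while the ID of Ube3a itself lies at 271 to 426 CPM and 219 to 484 CPM.

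Ube4b encodes a U-box E4 enzyme that lengthens ubiquitin chains and works with VCP. It was read through Ube4bos1 (5120 counts, all 452 shared bases within coding sequence) and Ube4bos3 (371 counts). Levels were 723, 641, 765, 833 and 875 CPM in wild type beside 890, 939, 718, 701 and 876 CPM in dTPR/dTPR. The 2 highest animals were dTPR/dTPR, yet 2 others of that genotype lay below the wild-type mean, and the fold change was 0.10 ± 0.15. Rnf26 encodes a RING protein of the endoplasmic reticulum, and it stood at 604 ± 87.0 CPM in wild type beside 581 ± 77.0 CPM in dTPR/dTPR (-0.06 ± 0.16). Most of its counts came from Gm26737, which faces Rnf26 and the gene model Gm49380 equally, and without that ID the fold change was -0.33.

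Trim9 encodes a brain-enriched ligase known in axon guidance and exocytosis. Its levels, read at Gm48747, were 464, 425, 469, 584 and 543 CPM in wild type beside 697, 324, 596, 766 and 596 CPM in dTPR/dTPR. In all, 4 dTPR/dTPR animals lay above all wild-type animals and animal 2 lay below them all. The fold change was 0.26 ± 0.20 (edgeR unadjusted p = 0.213), rising to 0.42 without dTPR/dTPR animal 2 (unadjusted p = 0.0204) and falling to 0.15 without dTPR/dTPR animal 4. With the striatal level in the model it was 0.07. Trim17, a ligase studied in neuronal apoptosis, stood at 111, 112, 171, 131 and 137 CPM in wild type beside 209, 197, 142, 150 and 171 CPM in dTPR/dTPR. All 5 dTPR/dTPR animals lay above the wild-type mean, but wild-type animal 3 lay among them, and the fold change was 0.39 ± 0.23 (unadjusted p = 0.106). Of its 1056 counts, 1042 came from Gm44313, a 138-base model that faces Trim17 and the histone gene Hist3h2a equally, so Trim17 could not be tested without it.

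Other members of this group were picked out after their values were seen, for the size of their fold changes. Rnf220 had the largest positive value of the group, 0.91 ± 0.57. Its levels were 126, 67.4, 124, 175 and 68.4 CPM in wild type beside 52.6, 537, 127, 80.4 and 255 CPM in dTPR/dTPR. The dTPR/dTPR animals held both the lowest level and the 2 highest, and without dTPR/dTPR animal 2 the fold change was 0.20. With the striatal level in the model it was 1.23. Of the 1062 counts, 859 came from Gm12827, which shares 46 exon bases with Rnf220, and 203 from Gm12843, which shares 102. Tested as deposited, these IDs had 0.66 ± 0.59 and 2.36 ± 0.99 (edgeR unadjusted p = 0.279 and 0.0308, adjusted p = 0.997 for each). Over all IDs tested as deposited, 2.54% had an unadjusted p under 0.05. At Gm12843, 96 of the 203 counts came from dTPR/dTPR animal 2. Rnf207 had the largest negative value of the group, -0.93 ± 0.55. It stood at 77.9, 27.0, 73.3, 29.8 and 13.4 CPM in wild type beside 19.9, 27.0, 26.3, 10.1 and 33.0 CPM in dTPR/dTPR. Wild-type animals 1 and 3 stood apart from the rest, and all 5 dTPR/dTPR animals lay below the wild-type mean. Without wild-type animal 1 the value lay at -0.61. Rnf207 was read through Icmt, of whose exon bases only 1.95% face it.

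The F-box group held the 1 member with an unadjusted p under 0.05. All 6 tested F-box members of 10 had positive fold changes (median 0.25, beside 0.00 over all genes), beside 50.2% positive among all genes tested. The sign held in every fit for Fbxo3 and Fbxo7 only. Fbxw8 turned to -0.01 with upper-quartile scaling, Fbxl12 reached -0.09 and Fbxw4 -0.01 with 1 library left out (wild-type animals 5 and 3), and Fbxo46 turned from 0.45 to -0.06 without wild-type animals 2 and 3 together. The summed level of all 10 F-box members was 1400 ± 145 CPM in wild type beside 1459 ± 89.8 CPM in dTPR/dTPR. Fbxo3 encodes a substrate receptor of an SCF ligase, and it was read through 4931422A03Rik, which meets its 5′ end head to head. The counts were 7, 18, 12, 4 and 11 in wild type and 14, 35, 15, 43 and 20 in dTPR/dTPR, or 10.9, 24.3, 16.3, 6.62 and 13.4 CPM beside 19.9, 55.6, 24.7, 54.0 and 31.4 CPM. All 5 dTPR/dTPR animals lay above the wild-type mean, and the groups overlapped only through wild-type animal 2, which lay above dTPR/dTPR animal 1. The means were 14.3 ± 6.60 and 37.1 ± 16.7 CPM, a log2 fold change of 1.36 ± 0.56 (95% interval 0.18 to 2.54, edgeR unadjusted p = 0.0263, adjusted p = 0.999). Fbxo3 thus did not pass the test over all genes.

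The counts behind Fbxo3 were few, 179 over 10 libraries. Leaving out 1 library moved the fold change between 1.18 and 1.63 and the unadjusted p between 0.0151 and 0.0840, with values above 0.05 without wild-type animal 4, dTPR/dTPR animal 2 or dTPR/dTPR animal 4. The fold change was 1.48 with the striatal level in the model, and 1.82 when wild-type animals 2 and 3 were left out. Only 190 of the 1602 exon bases of the counted ID face Fbxo3, 104 of them coding, and Fbxo3's own ID had 0 counts. Whether the counts come from Fbxo3 or from transcription off the same promoter region in the other direction was not tested.

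**Figure D3:**
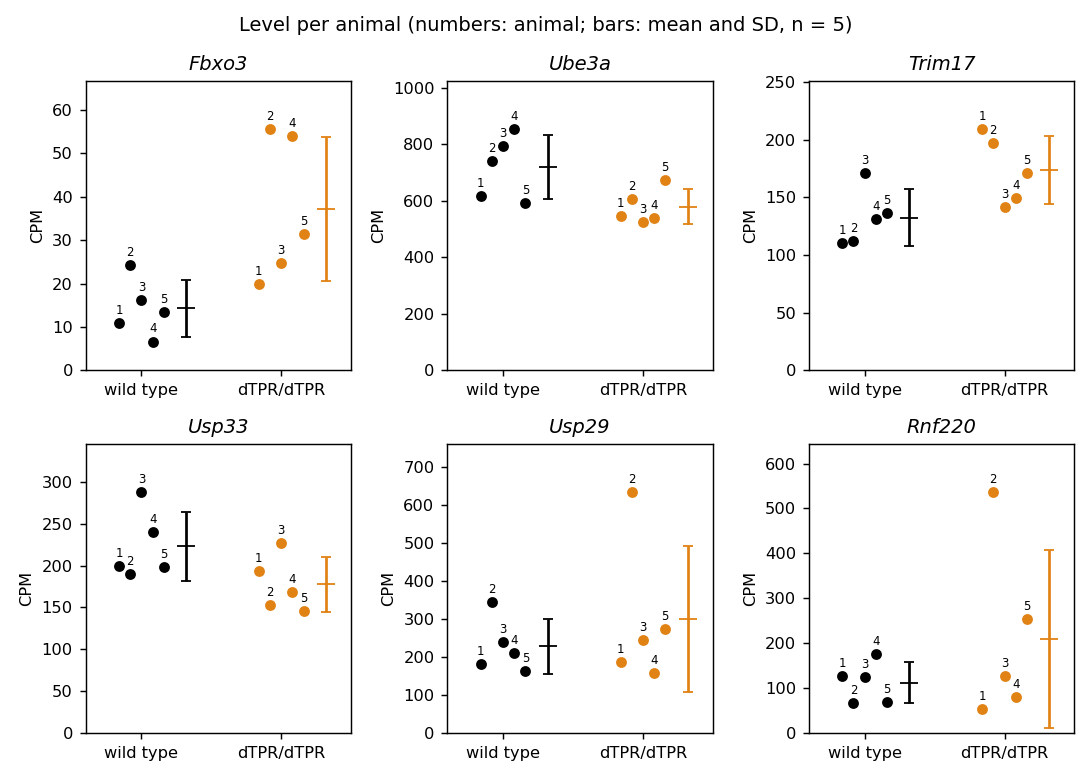
CPM per animal for Fbxo3, Ube3a, Trim17, Usp33, Usp29 and Rnf220, with bars for the mean and SD of 5 animals. In Fbxo3 the dTPR/dTPR animals sit between 19.9 and 55.6 CPM and the wild-type animals between 6.62 and 24.3 CPM, while in Ube3a all dTPR/dTPR animals sit below the wild-type mean of 719 CPM.

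The F-box members with more counts lay close together in the 2 genotypes. Fbxl12, read through Ubl5, had 592, 586, 587, 488 and 341 CPM in wild type beside 650, 456, 364, 572 and 599 CPM in dTPR/dTPR. The highest and the lowest animals of the 2 genotypes lay close to each other, and the fold change was 0.03 ± 0.20. Fbxw8, which pairs with the scaffold CUL7 in a ligase studied in neuronal dendrites, stood at 501 ± 64.5 and 504 ± 48.4 CPM (0.01 ± 0.16, 95% interval -0.32 to 0.34). Fbxw4 stood at 307 ± 45.0 and 317 ± 31.2 CPM (0.05 ± 0.17). Fbxo7, an F-box gene linked to inherited parkinsonism, had only 102 counts and stood at 10.7 ± 7.93 and 19.2 ± 14.5 CPM (0.82 ± 0.97). The value ran from 0.51 to 1.15 with 1 library left out (0.52 without wild-type animal 4, 0.51 and 0.55 without dTPR/dTPR animals 1 and 5), and was 0.11 with limma-voom, 1.48 with the striatal level and 1.72 without wild-type animals 2 and 3. Fbxo7 had 0 counts in animal 4 of each genotype, which allows up to 3 counts in either library, and its own ID had 2214 counts, more than the 102 of the ID that faces it. Tested as deposited, that own ID had a fold change of the opposite sign, -0.32 ± 0.21 (edgeR unadjusted p = 0.146). Which of the 2 IDs holds transcripts of Fbxo7 was not tested.

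Deubiquitinases remove ubiquitin from proteins or trim chains, and 8 of the 12 Usp members were tested, 5 with positive and 3 with negative fold changes (median 0.19). The summed level of all 12 Usp members was 2086 ± 113 CPM in wild type beside 2152 ± 207 CPM in dTPR/dTPR. Usp34, a very large enzyme studied in Wnt signalling, drew the most counts of the group and was read at its 3′ end through Ahsa2, whose name marks it as a relative of the HSP90 activator AHSA1. Levels were 943, 667, 829, 1063 and 1006 CPM in wild type beside 965, 815, 874, 814 and 652 CPM in dTPR/dTPR. The ranges overlapped at both ends, although 4 of 5 dTPR/dTPR animals lay below the wild-type mean, and the fold change was -0.13 ± 0.16. It ran from -0.05 to -0.22 with 1 library left out, and was -0.25 with the striatal level and -0.28 without wild-type animals 2 and 3. The same counts would bear on Ahsa2 if part of them are its own transcripts, and this was not tested.

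Usp14 encodes the deubiquitinase that binds the proteasome and trims chains on its substrates. It was read through Thoc1 at 306 ± 58.0 CPM in wild type beside 340 ± 54.3 CPM in dTPR/dTPR (0.15 ± 0.19). Usp54 had 242, 352, 323, 182 and 216 CPM in wild type beside 377, 243, 265, 353 and 396 CPM in dTPR/dTPR. In this member 4 of 5 dTPR/dTPR animals lay above the wild-type mean, in a range shared with wild-type animals 2 and 3, and the fold change was 0.31 ± 0.22 (unadjusted p = 0.170). Without those wild-type animals the value was 0.62. Usp33, an enzyme studied in receptor recycling and axon guidance, had 200, 190, 288, 240 and 198 CPM in wild type beside 193, 152, 227, 168 and 146 CPM in dTPR/dTPR. Here 4 of 5 dTPR/dTPR animals lay below the wild-type mean and the ranges still overlapped, with a fold change of -0.33 ± 0.21 (unadjusted p = 0.143).

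Usp29, named here after its values were seen, is an imprinted gene expressed from the paternal allele and was read through Zim3 on chromosome 7. Levels were 182, 345, 239, 210 and 162 CPM in wild type beside 186, 634, 245, 157 and 274 CPM in dTPR/dTPR. The highest animal of all was dTPR/dTPR animal 2, while the other 4 of its genotype lay within or just under the wild-type range. The fold change was 0.39 ± 0.34 and turned to -0.08 without dTPR/dTPR animal 2. It was 0.82 with the striatal level in the model and 0.70 without wild-type animals 2 and 3. Usp31 had 0 counts in wild-type animal 2, which allows up to 3 counts in that library, and between 24 and 48 in the others, with 38.7 ± 25.4 CPM in wild type beside 52.9 ± 8.91 CPM in dTPR/dTPR (0.46 ± 0.63). Its fold change was 0.14 without wild-type animal 2, 0.78 without wild-type animal 4, -0.01 without wild-type animals 2 and 3, 0.23 with the striatal level and 1.33 with limma-voom.

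The proteasome members drew few counts, and 3 of 9 were tested. Psmb7 encodes the trypsin-like β subunit of the proteasome core. It was read through Nek6 at 101, 193, 58.4, 91.1 and 100 CPM in wild type beside 62.6, 119, 102, 119 and 83.3 CPM in dTPR/dTPR. The wild-type animals held both the highest and the lowest value, and the fold change was -0.16 ± 0.33, which turned to 0.15 without wild-type animal 2. Psmd3, a subunit of the regulatory cap, stood at 49.7 ± 20.5 and 52.3 ± 7.95 CPM (0.08 ± 0.39). Psme1, a subunit of the PA28 activator, stood at 98.1 ± 36.6 and 99.7 ± 37.4 CPM (0.02 ± 0.36), on an ID that shares 14 bases with it. Psma4, Psma5, Psmb9, Psmc3, Psmd1 and Psmd9 had 57, 9, 3, 12, 23 and 7 counts and were not tested.

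**Figure D4:**
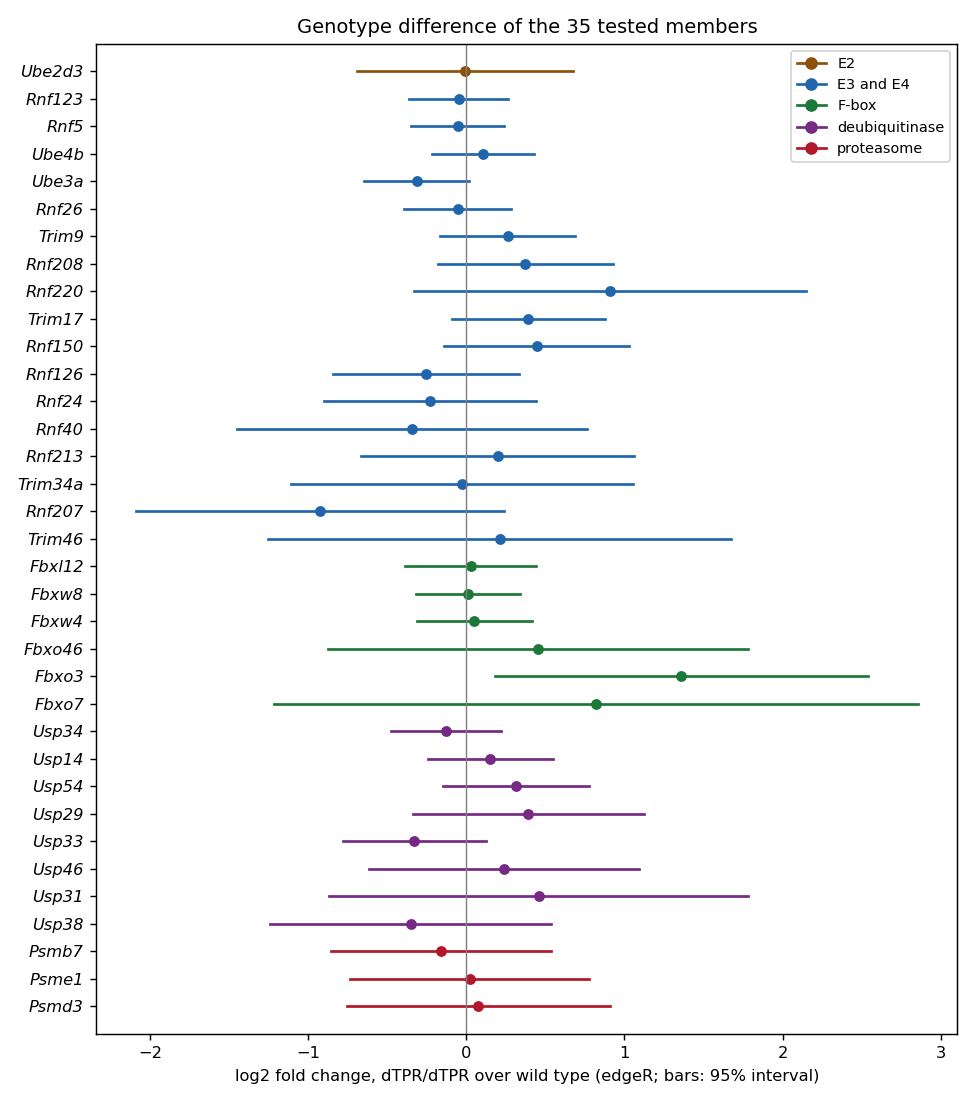
Log2 fold changes (dTPR/dTPR over wild type) of all 35 tested members with 95% intervals, ordered by role. The interval of Fbxo3 (0.18 to 2.54) is the one that leaves out 0, and no member has an adjusted p under 0.05.

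How far the data limit a change depended on abundance. The 14 members at 200 CPM or above had a median SE of 0.17 on the log2 scale, and in 13 of them the 95% interval lay within a 2-fold change in either direction, the exception being Usp29, whose interval reached 1.12. The 21 members under 200 CPM had a median SE of 0.41, and the interval lay within that range in 8. Over all 2019 genes the median SE was 0.42, beside 0.32 over the 35 members. A missed threshold does not show that a member was the same in both genotypes, and the 31 members that were not tested had too few counts for any such limit.

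**Figure D5:**
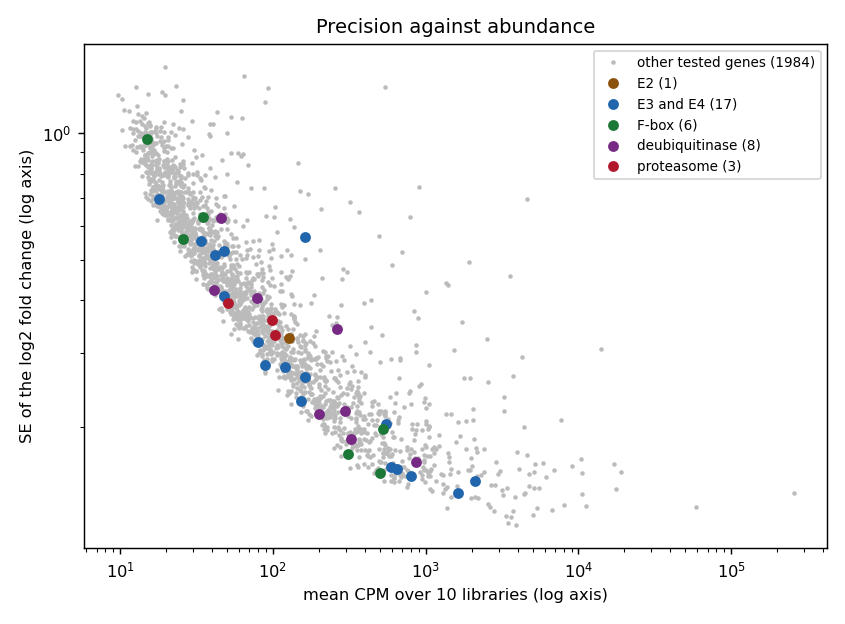
Standard error of the log2 fold change against mean CPM (both axes log) for the tested members and all tested genes. The SE falls with abundance, from a median of 0.41 for members under 200 CPM to 0.17 for those above.

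Among genes of the pathway outside the member prefixes, none passed the test either. From a list of 123 genes for ubiquitin precursors, E1 enzymes, cullins, other ligases, other deubiquitinases, the COP9 signalosome and related factors, 27 had opposite-strand counts and 9 were tested. Of these, 7 had positive and 2 negative fold changes (median 0.12), 0 had an adjusted p under 0.05 in edgeR, and 0 had an unadjusted p under 0.05. Stub1, which encodes the chaperone-bound ligase CHIP, ranged from 2677 to 3925 CPM in wild type, and the dTPR/dTPR animals lay inside that range at 3005 to 3468 CPM (0.10 ± 0.14). Hectd2, a HECT ligase, had 0.27 ± 0.18, Cops3 of the signalosome 0.34 ± 0.39, and Ubxn6, a cofactor of VCP, 0.30 ± 0.26. The 2 negative ones were the ligase genes Herc1 (-0.27) and Hectd3 (-0.40).

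The members' own IDs were counted apart from the facing IDs, and the choice of members did not use them. If counts lie opposite to genes, as the assignment takes them to, counts at an own ID need not come from the member. Whose transcripts they are was not tested, so their tests give no second check of the members. Together the own IDs held 9932 counts, beside 78104 at the IDs that face them, and 16 of the 66 had 0. In 15 members the own ID held more counts than the facing IDs, of which 2 were tested members, Fbxo7 and Fbxo46 (478 beside 237 counts). Only 15 of the 66 own IDs passed the filter when the IDs were tested as deposited. Of those 15, 0 had an adjusted p under 0.05 in edgeR (0% of the 3027 IDs tested) and 0 had an unadjusted p under 0.05 (2.54% of the 3027).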

How the data were processed

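Poly(A)-terminated single-end libraries of cortical RNA (SENSE Total RNA-Seq kit) were counted by the authors, and the deposited values are raw read counts, 1 whole number for each of 53090 gene IDs and library. The submitters' processing notes name the tools TopHat and HTSeq, also DESeq2, and the build GRCm38.p5. Versions and strand settings are not given in the sources used here. Rows that name no gene numbered 0. With GENCODE M21 (52403 IDs found), counts were summed per opposite-strand gene holding at least 90% of the facing exon bases, which took in 88.0% of all counts. Of the assigned IDs, 18 faced 2 genes at the threshold and went to 1 of them.

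Genotype was tested with edgeR 4.0.16 in R 4.3.3 on all 10 libraries: TMM factors, filterByExpr, robust quasi-likelihood fits without covariates, Benjamini-Hochberg adjustment over 2019 genes, threshold 0.05. SE is the log2 fold change divided by the root of F. Positions were handled in Python 3.11.15 with pyranges 0.1.4. The fit was tested on simulated counts.

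The members and lists were chosen with earlier results of these data known. Named members were the 12 most abundant, the most abundant and the 2 with the smallest p in each of the 5 role groups, and any with an unadjusted p under 0.05 or without overlap between genotypes. Other pathway genes named were among the 5 most abundant tested, and 1 that this rule selects is not reported here. Herc1 and Hectd3 lie outside it and were named after their values were seen, for their negative sign. Usp29, Usp31, Psme1, Rnf220, Rnf207 and any other member described outside this rule were chosen after their values were seen. Alternatives were the scalings of DESeq2 and the upper quartile, fits unfiltered or filtered at 1 CPM (5 libraries), the tests of limma-voom (3.58.1) and DESeq2 (1.42.0), added terms for age, animal number or striatal level, mitochondrial IDs out, other assignment thresholds and each library left out.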

Additional observations from a re-analysis of the deposited data

Results flagged for a closer look

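In 3 members 1 animal stood far from the other 4 of its genotype by Dixon's test, out of 70 groups of 5 examined, where chance alone flags about 1 in 20 (3.5 groups). Usp29 was at 633.7 CPM in dTPR/dTPR animal 2, and the next animal of that genotype was at 273.5 CPM. Rnf126 was at 130.4 CPM in wild-type animal 3, with the next at 92.71 CPM, and Rnf24 was at 96.69 CPM in dTPR/dTPR animal 1, with the next at 72.3 CPM. Rnf126 and Rnf24 had log2 fold changes of -0.26 ± 0.28 and -0.23 ± 0.32, which were -0.13 and -0.34 without those animals. Usp29 had 0.39 ± 0.34, and -0.08 without that animal.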

How the results depend on the processing

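The count of 0 members with an adjusted p under 0.05 held in all 25 alternative fits. Of 460 fold changes of the 19 named members under the alternatives, 427 kept their sign and their side of the threshold and 33 turned, in 9 members. Over all genes, 2 were called with no filter on low counts (Fam184b and Prox1os), and 0 otherwise. The count of members at an unadjusted p under 0.05 was 5 of 66 with no filter (7.58%, beside 10.5% of all genes) and 2 of 66 with DESeq2 (3.03% beside 2.68%). With the striatal level in the model it was 3 of 35 (Fbxo3, Rnf220 and Usp29, 8.57% beside 2.28%). Without dTPR/dTPR animal 2, and without that term, Rnf220 was at 0.20 and Usp29 at -0.08. The count was 0 of 10 with only IDs that have most of their exon bases facing the gene (beside 3.96%). It was 2 of 36 without wild-type animals 2 and 3 (5.56% beside 2.58%). It ran from 0 to 3 with 1 library left out, while the share over all genes ran from 2.17% to 4.92%. Positive fold changes numbered 39 of 66 with no filter, 37 of 66 with DESeq2 and 5 of 10 with the stricter IDs. The median fold change ran from 0.0090 to 0.143 with 1 library left out.

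Ube2d3 turned positive with no filter (0.021), the 1 CPM filter (0.0069), limma-voom (0.091), age (0.055), the replicate block (0.028), the striatal level (0.013), mitochondrial IDs out (0.0045) and wild-type animals 2 and 3 out (0.023). Fbxw8 was at -0.0050 with upper-quartile factors. With the striatal level in the model Rnf5 was at 0.0083 and Psmd3 at -0.15. With the stricter IDs Rnf123 was at 0.31. Without wild-type animals 2 and 3 Rnf5 was at 0.050, Rnf26 at 0.0096 and Psmd3 at -0.19. With 1 library left out the ranges were -0.038 to 0.081 for Fbxw8, -0.11 to 0.023 for Rnf26, -0.32 to 0.15 for Psmb7, -0.15 to 0.23 for Ube2d3, -0.012 to 0.14 for Fbxw4, -0.13 to 0.26 for Psmd3, -0.090 to 0.14 for Fbxl12, -0.097 to 0.0070 for Rnf5 and -0.15 to 0.044 for Rnf123. The cause was not tested. Which genes entered also changed with no filter, the 1 CPM filter, mitochondrial IDs out, the stricter IDs and libraries left out.

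Animals with the same number correlated at 0.0766, 0.0975, -0.108, 0.0719 and -0.0352, and 2 of 5 correlated best with their own number. These 5 values are too few to show whether the numbers pair the animals. With the replicate block 0 members and 0 genes were called, and 0 members had an unadjusted p under 0.05 (Fbxo3 at 0.0578). The fits without wild-type animals 2 and 3, and without IDs that face 2 genes, were chosen after seeing the data. Depth limits what can be said: 31 of 66 members were not tested, and members under 200 CPM had a median SE of 0.41.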
